A study of Mus musculus with 24 samples.

Results

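The 35 genes described here carry out the cell cycle and DNA replication: G1 cyclins and their kinases, G1/S regulators, origin licensing factors, replication and nucleotide enzymes, mitotic kinases and cyclins, and proteins of the spindle and centromere. They were chosen by name, as a list of known cell cycle and replication genes, and each was matched to 1 of the 46078 gene IDs of the count tables. All 35 were among the 15128 genes tested. The tissue was heart of C57BL/6 mice, described as wild type. The groups were 45 min of ischemia without reperfusion, the same ischemia followed by 0.5, 1, 1.5, 3, 6 or 12 h of reperfusion, and sham surgery, each with 3 RNA-seq libraries. No transgene or drug was named for any group. Nothing in the labels ties a library to its own mouse, and the p-values therefore speak of the spread among these libraries, part of which may be technical. They also give neither age, sex nor the part of the heart taken.

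Cyclin D with Cdk4 starts the passage through G1, and cyclin E with Cdk2 carries the cell into S phase, with E2F factors switching on the genes of replication. Cdc6 and Cdt1 load the Mcm2 to Mcm7 helicase on replication origins, and Cdk1 with cyclins A and B then drives mitosis, where the Aurora and Polo-like kinases and the spindle checkpoint order the separation of chromosomes. Adult cardiomyocytes rarely divide, and heart tissue also holds other resident and blood-borne cells. In such bulk tissue, fewer cells of a type and less RNA per cell cannot be told apart.

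Levels are given as CPM, read counts scaled to library size after correction for library composition by the trimmed mean of M values (TMM). Libraries held 13407465 to 17181458 uniquely mapped reads assigned to genes, and a count of 3 reads, taken as the floor, was worth 0.152 to 0.240 CPM. Floors cover counting error only. Mitochondrial genes took 19.0 to 33.2% of the reads. The defining cardiomyocyte markers were abundant in every group, with 10 markers summing to 79536 to 83961 CPM in sham hearts. A gene is called here where its adjusted p is under 0.05 in edgeR's quasi-likelihood test with Benjamini-Hochberg adjustment over all 15128 genes.

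The upstream sequences of 5 genes on which the results below turn are shown first: 3 licensing genes called lower after reperfusion and 2 mitotic genes that changed over the time course without a call against sham. They come from the RefSeq promoter table for GRCm38.p6 (mm10), which holds 29 of the 35 genes; Ccnd1, Ccnd2, Ccne2, Mcm4, Ccna2 and Aurkb were not matched. Capitals mark 3 kinds of motif searched on both strands: E2F motifs (TTTCCCGC, TTTCGCGC, TTTGCCGC or TTTGGCGC), the cell cycle homology region (CHR, TTTGAA) and the CCAAT box (CCAAT). Each run lies on the gene's own strand, 5′ to 3′, and ends at the base before the RefSeq start. The GENCODE gene of Cdc6 begins earlier, at chr11:98907801, so the Cdc6 run and its motif lie downstream of that start.
Cdc6, chr11:98907982-98908150, plus strand: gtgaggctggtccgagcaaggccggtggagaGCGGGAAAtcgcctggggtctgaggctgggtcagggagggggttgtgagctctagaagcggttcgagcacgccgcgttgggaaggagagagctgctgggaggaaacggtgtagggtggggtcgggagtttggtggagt
Mcm2, chr6:88898781-88899030, minus strand: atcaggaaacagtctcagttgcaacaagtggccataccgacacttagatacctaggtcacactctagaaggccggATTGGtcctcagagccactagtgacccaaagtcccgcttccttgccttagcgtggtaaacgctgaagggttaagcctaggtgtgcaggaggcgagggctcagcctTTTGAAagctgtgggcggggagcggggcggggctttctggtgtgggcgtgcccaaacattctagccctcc
Mcm5, chr8:75109259-75109508, plus strand: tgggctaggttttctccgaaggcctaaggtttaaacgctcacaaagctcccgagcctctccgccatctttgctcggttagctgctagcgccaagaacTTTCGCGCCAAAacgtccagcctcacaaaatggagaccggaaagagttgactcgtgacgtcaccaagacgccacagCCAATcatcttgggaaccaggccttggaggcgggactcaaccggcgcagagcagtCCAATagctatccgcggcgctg
Top2a, chr11:99024190-99024439, minus strand: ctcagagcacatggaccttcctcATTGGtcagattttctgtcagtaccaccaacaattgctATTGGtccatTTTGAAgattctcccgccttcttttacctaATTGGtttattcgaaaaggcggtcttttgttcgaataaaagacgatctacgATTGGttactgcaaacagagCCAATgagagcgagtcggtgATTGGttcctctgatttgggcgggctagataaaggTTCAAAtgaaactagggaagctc
Mki67, chr7:135716380-135716629, minus strand: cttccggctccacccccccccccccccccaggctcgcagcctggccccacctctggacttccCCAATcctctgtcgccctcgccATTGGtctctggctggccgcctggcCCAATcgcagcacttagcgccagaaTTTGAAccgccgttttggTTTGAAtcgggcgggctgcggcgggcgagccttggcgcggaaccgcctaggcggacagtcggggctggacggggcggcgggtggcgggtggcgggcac

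Cdc6 carried 1 E2F motif on its minus strand, Mcm5 held a pair of overlapping E2F motifs, and the window of Mcm2 had a CHR but no E2F motif of these letters. Top2a and Mki67 each held CHR motifs and several CCAAT boxes. Over the 300-base windows (250 before to 50 after the start), an E2F motif stood in 25.8% of the 31 promoters of these genes, against 2.26% of all 32851 promoters in the table. The CHR stood in 32.3% of them, against 17.9% of all, and the CCAAT box in 74.2%, against 37.4% of all. Among genes with a promoter, an E2F motif was found in 0 of 2 G1 genes, 1 of 3 G1/S genes, 6 of 7 licensing genes, 0 of 4 replication clamp and nucleotide genes, 1 of 6 mitotic cyclins, kinases and phosphatase and 0 of 7 spindle and centromere genes. The CHR was found in 1 of 7 licensing genes, in 4 of 6 mitotic genes and in 5 of 7 spindle genes, and in 0 of the other genes. The CCAAT box was found in 1 of 2 G1, 1 of 3 G1/S, 5 of 7 licensing, 3 of 4 clamp and nucleotide, 6 of 6 mitotic and 6 of 7 spindle genes. The E2F motifs of Mcm7 come from a window downstream of its GENCODE start, chr5:138172422, over annotated exons. The window of E2f1, which held no E2F motif, likewise lies downstream of its GENCODE start, chr2:154569892. Differences between roles were not tested. A motif match is a description of the letters and was not tested as a binding site.

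Few of the 35 genes were called at any time, and most calls fell at 3 to 12 h. After 45 min of ischemia alone 0 genes were called, where 0.0925% of all tested genes were called higher and 0% lower; 5 of the 35 had an unadjusted p under 0.05 in edgeR, and DESeq2 called 0. At 0.5 h of reperfusion 0 were called, against backgrounds of 7.43% higher and 4.48% lower, with 3 at an unadjusted p under 0.05 and 0 in DESeq2. At 1 h, 1 gene (Pcna) was called higher, against a background of 7.46%, and 0 lower, against 3.41%. At 1.5 h, 0 were called, against 4.55% higher and 2.99% lower, with 2 at an unadjusted p under 0.05 in edgeR and 0 in DESeq2.

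At 3 h, 2 genes were called higher and 3 lower, or 5.71% and 8.57% of the 35, where 18.4% of all tested genes were called higher and 16.9% lower. At 6 h, 3 were called higher and 5 lower, or 8.57% and 14.3%, where the backgrounds were 24.6% and 22.9%. At 12 h, 1 was called higher and 4 lower, or 2.86% and 11.4%, where the backgrounds were 16.9% and 14.9%. Each of these shares lay below its background. The 35 genes had fewer reads than the genes of that background, with a median of 1397 over the 24 libraries, against 5043 for all tested genes; the part of this in the shares was not tested. The median log2 fold change of the 35 against sham was 0.30 after ischemia, 0.22 at 0.5 h, 0.31 at 1 h, -0.07 at 1.5 h, -0.16 at 3 h, -0.29 at 6 h and -0.22 at 12 h; the median over all tested genes was -0.01 to 0.01. With library totals in place of TMM scaling, the median of all tested genes at 12 h was 0.23 and that of the 35 was 0.01, with 20 of the 35 positive in place of 7. In all, 12 of the 35 genes were called against sham at least once and 23 never. The share of all tested genes called at least once is not reported here. A test for any change across the 8 groups called 15 genes, or 42.9%, against 64.3% of all tested genes. The comparisons with sham share the same 3 sham libraries.

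**Figure D1:**
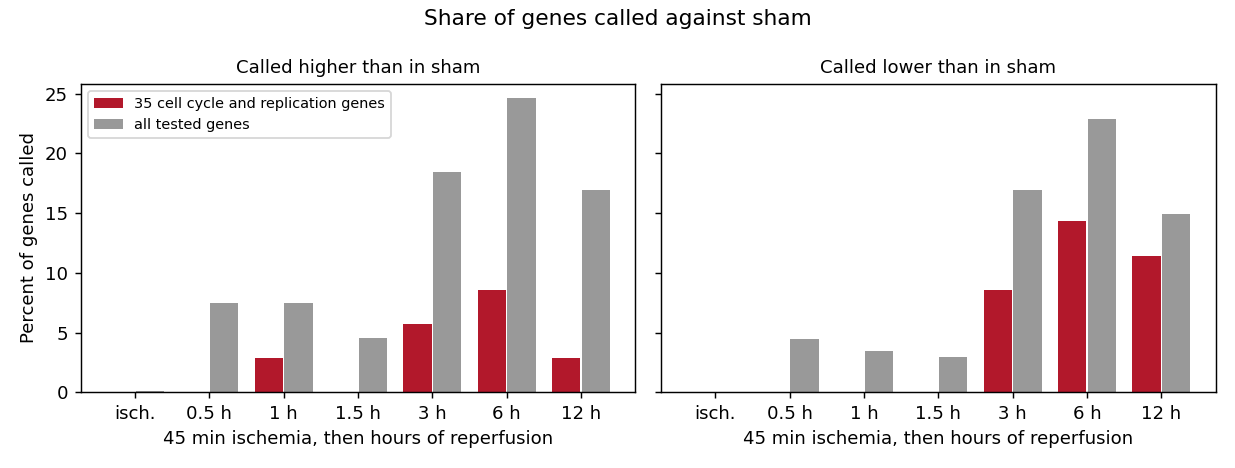
Percent of genes called higher (left) and lower (right) than in sham hearts after 45 min of ischemia (isch.) and at each reperfusion time, for the 35 cell cycle and replication genes (red) and for all 15128 tested genes (grey). At 3, 6 and 12 h the red bars stand below the grey bars in both directions.

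**Figure D2:**
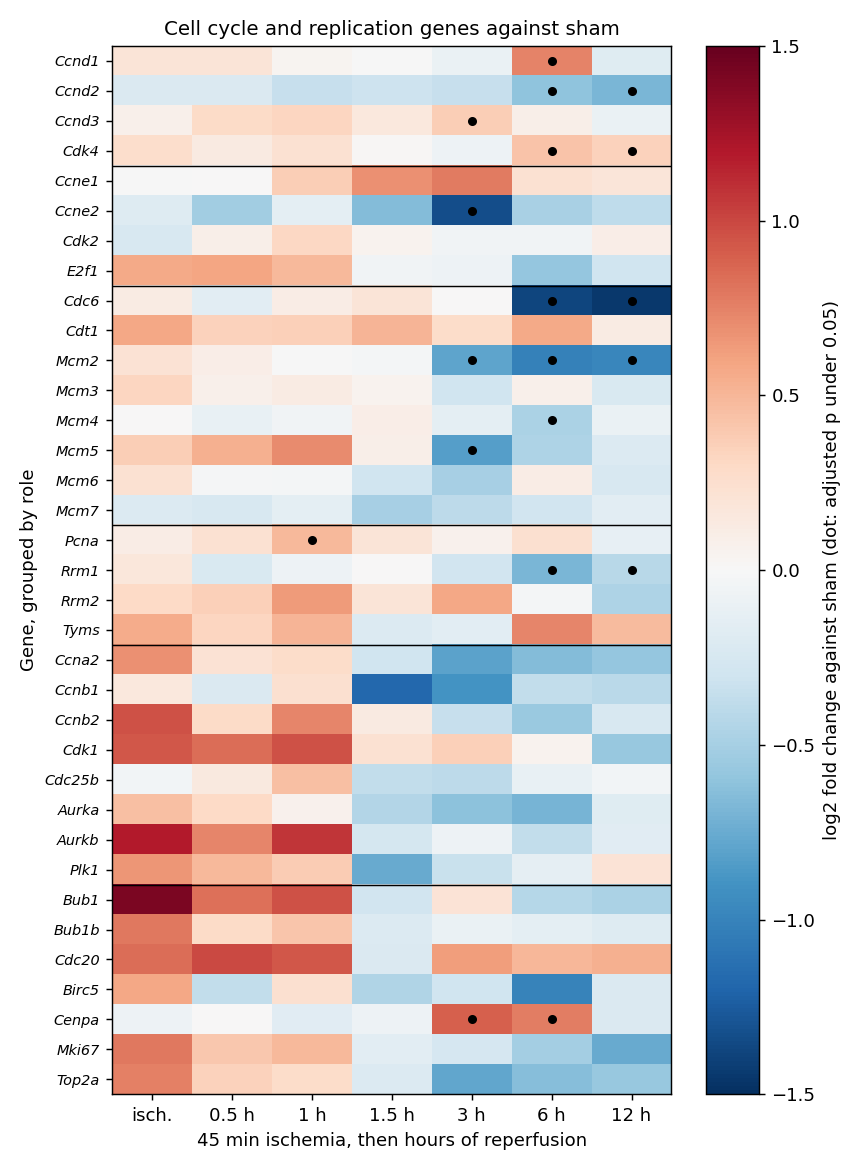
Log2 fold change against sham for each of the 35 genes (rows, grouped by role between lines) after 45 min of ischemia (isch.) and at each reperfusion time (columns); dots mark an adjusted p under 0.05. The 19 dots lie at 1 h and at 3 to 12 h, and Mcm2 has dots at 3, 6 and 12 h.

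The G1 cyclins and their kinase gave calls in both directions. Ccnd1, which encodes cyclin D1 (ENSMUSG00000070348, chr7:144929931-144939925, minus strand, mm10), had 74.7, 112 and 91.3 CPM at 6 h, against 53.04, 57.5 and 55.2 CPM in sham hearts. All 3 libraries at 6 h lay above all 3 sham libraries, with no overlap. The log2 fold change was 0.75 ± 0.18 (SE; edgeR adjusted p = 0.00155). At 12 h it had 39.9, 44.6 and 61.4 CPM, and the group overlapped sham. Cyclin D1 RNA was lower at 12 h than at 6 h, with a log2 fold change of -0.93 ± 0.18 (SE; edgeR adjusted p = 0.00142), and higher at 6 h than at 3 h, with one of 0.85 ± 0.18 (SE; edgeR adjusted p = 0.00124). Exons of the opposite-strand gene LTO1 cover 23.4% of the exon bases of Ccnd1, and the strand setting of the counting is not stated by the labels; LTO1 had a log2 fold change of -0.08 at 6 h against sham, which was not called. LTO1 was called lower at 3 h against sham, at -0.79 (edgeR adjusted p = 0.0133), and higher at 6 h against 3 h, at 0.72 (edgeR adjusted p = 0.0291).

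Ccnd2, the gene of cyclin D2 (chr6:127125162-127152193, minus strand), was lower at the late times. It had 89.5, 64.6 and 81.8 CPM at 6 h and 68.9, 74.6 and 80.3 CPM at 12 h, against 128, 123 and 109 CPM in sham hearts. Neither late group overlapped sham. The log2 fold changes were -0.61 ± 0.16 (SE; edgeR adjusted p = 0.00280) at 6 h and -0.69 ± 0.16 (SE; edgeR adjusted p = 0.00175) at 12 h; with library totals in place of TMM the 12 h value was -0.47 with adjusted p = 0.0511. Antisense genes cover 7.86% of its exon bases. Ccnd3, the gene of cyclin D3 (chr17:47505051-47599691, plus strand), had 55.7, 49.4 and 60.5 CPM at 3 h, against 44.2, 41.4 and 42.2 CPM in sham hearts, again without overlap. Its log2 fold change was 0.37 ± 0.11 (SE; edgeR adjusted p = 0.00924), and without 3 h library 3 it was 0.30 with adjusted p = 0.0646. Exons of the opposite-strand gene Bysl cover 4.11% of those of Ccnd3, and Bysl had a log2 fold change of 0.36 at 3 h, which was not called (edgeR adjusted p = 0.0669).

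Cdk4, the kinase partner of the D cyclins (chr10:127063534-127067920, plus strand), had 33.8, 49.5 and 44.2 CPM at 6 h and 39.8, 41.5 and 39.3 CPM at 12 h, against 28.2, 31.03 and 35.4 CPM in sham hearts. The lowest library at 6 h lay within the sham range, while all 3 at 12 h lay above it. The log2 fold changes were 0.43 ± 0.13 (SE; edgeR adjusted p = 0.00881) at 6 h and 0.35 ± 0.13 (SE; edgeR adjusted p = 0.0420) at 12 h. The 6 h call was lost without sham library 1 (0.36, adjusted p = 0.0560) or 6 h library 2 (0.31, adjusted p = 0.0827). The 12 h call was lost without sham library 1 or 2 or any of the 12 h libraries, with adjusted p of 0.0672 to 0.177. Exons of the opposite-strand gene Tspan31 cover 19.7% of those of Cdk4, and Tspan31 had a log2 fold change of 0.05 at 6 h, which was not called.

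**Figure D3:**
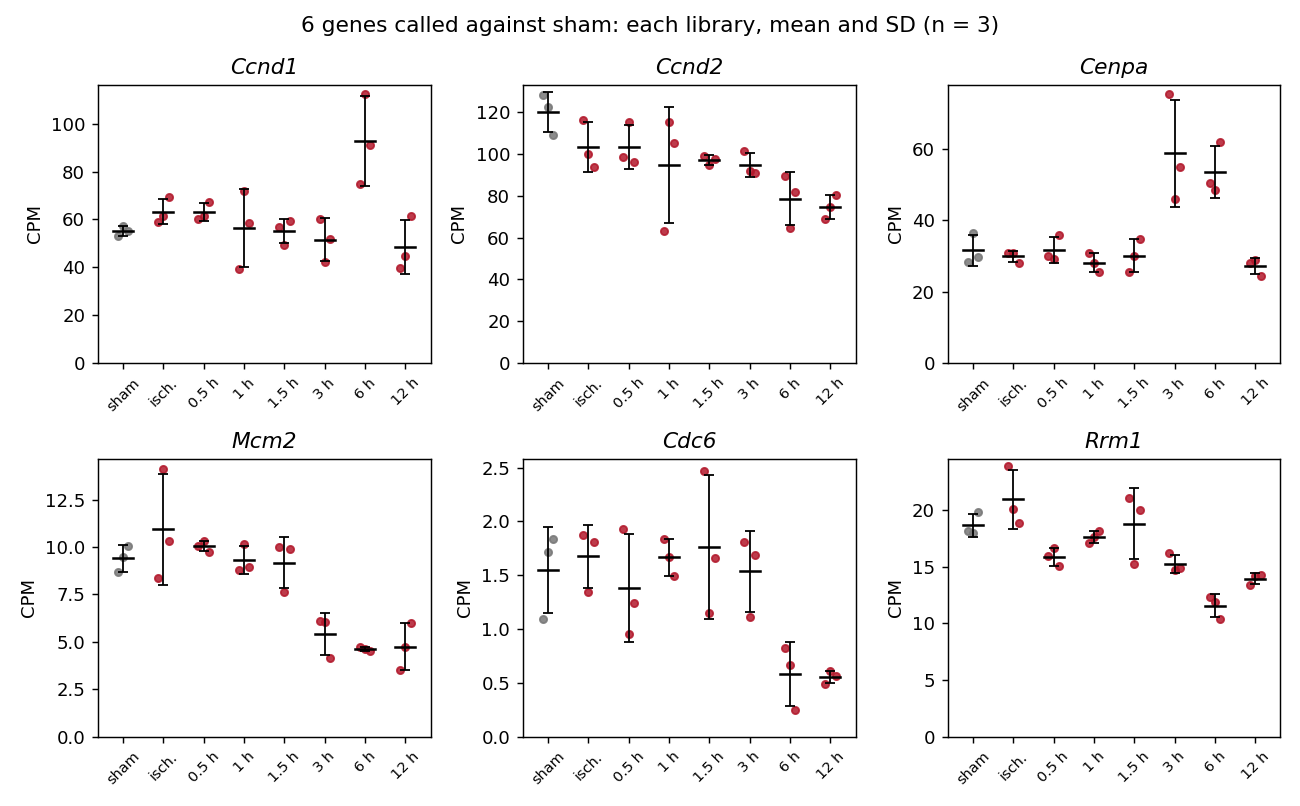
CPM of 6 genes in each of the 24 libraries, by group from sham to 12 h of reperfusion; points are libraries (grey sham, red all others), bars the mean and whiskers the SD (n = 3). Ccnd1 stands highest at 6 h, Cenpa is high at 3 and 6 h, and Ccnd2, Mcm2, Cdc6 and Rrm1 are low at 6 and 12 h.

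Of the G1/S regulators, 1 of 4 was called, lower at 3 h, where 16.9% of all tested genes were called lower. Ccne2, which encodes cyclin E2 (chr4:11191351-11204779, plus strand), had 2.17, 0.592 and 1.04 CPM at 3 h (36, 8 and 16 reads), against 4.17, 2.81 and 2.72 CPM in sham hearts (65, 41 and 34 reads). All 3 h libraries lay below all sham libraries, and 3 h library 2 was the lowest. The log2 fold change was -1.32 ± 0.39 (SE; edgeR adjusted p = 0.00987), and the call was lost without sham library 1 (-1.09, adjusted p = 0.0595) or 3 h library 2 (-1.01, adjusted p = 0.0531). Exons of the opposite-strand gene Ints8 cover 17.4% of those of Ccne2, and Ints8 was itself called lower at 3 h, at -0.56 with adjusted p = 0.00858 in edgeR. Ccne1, Cdk2 and E2f1 were not called. Their counts differed widely: Ccne1, the other E cyclin, had 11 to 46 reads in a library, Cdk2, its kinase, 139 to 297, and E2f1, a transcription factor of replication genes, 9 to 50.

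Of the 8 licensing genes, 4 were called against sham, all of them lower. The share called lower was 25% at 3 h, 37.5% at 6 h and 25% at 12 h. Of all tested genes, 16.9%, 22.9% and 14.9% were called lower at those times. Mcm2, a subunit of the replicative helicase (chr6:88883474-88898780, minus strand), had 6.08, 6.06 and 4.16 CPM at 3 h, 4.73, 4.63 and 4.55 CPM at 6 h and 3.52, 4.75 and 5.97 CPM at 12 h, against 8.67, 9.45 and 10.1 CPM in sham hearts. None of these libraries reached the lowest sham library. Its log2 fold changes were -0.79 ± 0.20 (SE; edgeR adjusted p = 0.00370) at 3 h, -1.02 ± 0.20 (SE; edgeR adjusted p = 0.000224) at 6 h and -0.98 ± 0.20 (SE; edgeR adjusted p = 0.000541) at 12 h. From ischemia to 1.5 h it stayed between 7.62 and 14.1 CPM and was not called. It was lower at 3 h than at 1.5 h, with a log2 fold change of -0.76 ± 0.20 (SE; edgeR adjusted p = 0.0200).

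Cdc6, which loads the helicase on origins (chr11:98907801-98923940, plus strand), had few reads. It had 14, 11 and 4 reads at 6 h (0.828, 0.671 and 0.249 CPM) and 9, 12 and 10 reads at 12 h (0.494, 0.606 and 0.569 CPM), against 17, 25 and 23 reads in sham hearts (1.09, 1.71 and 1.84 CPM). Neither group overlapped sham, and every library was above the floor of 3 reads. The log2 fold changes were -1.38 ± 0.40 (SE; edgeR adjusted p = 0.00656) at 6 h and -1.45 ± 0.40 (SE; edgeR adjusted p = 0.00682) at 12 h. At 3 h it was at 1.54 ± 0.374 CPM (SD, n = 3), against 1.55 ± 0.400 in sham hearts, and the 6 h value was lower than that at 3 h, with a log2 fold change of -1.39 ± 0.40 (SE; edgeR adjusted p = 0.0112).

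Mcm5, another helicase subunit (chr8:75109569-75128439, plus strand), had 3.25, 1.33 and 2.28 CPM at 3 h (54, 18 and 35 reads), against 3.79, 4.04 and 4.48 CPM in sham hearts (59, 59 and 56 reads). The groups did not overlap, and the log2 fold change was -0.82 ± 0.25 (SE; edgeR adjusted p = 0.0145). Without 3 h library 2, the lowest, it was -0.57 with adjusted p = 0.0828, and in a fit of the 3 h and sham libraries alone the adjusted p was 0.0624. Before that it stood at 5.95, 7.65 and 6.46 CPM at 1 h, above every sham library, with a log2 fold change of 0.71 ± 0.24 (SE; edgeR adjusted p = 0.0536), which missed the threshold. Mcm4 (chr16:15623897-15637400, minus strand) had 7.45, 7.26 and 6.98 CPM at 6 h, against 8.67, 10.7 and 10.95 CPM in sham hearts, without overlap, at -0.48 ± 0.17 (SE; edgeR adjusted p = 0.0254). That call was lost without sham library 2 or 3, or 6 h library 2 or 3, with adjusted p of 0.0596 to 0.0883. It was also lost with library totals in place of TMM (adjusted p = 0.0547) and with no filter on low counts (adjusted p = 0.0781).

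The other 4 licensing genes, Mcm3, Mcm6, Mcm7 and Cdt1, were not called against sham. Mcm3, Mcm6 and Mcm7, subunits of the same ring, had log2 fold changes of -0.30, -0.50 and -0.40 at 3 h and 0.08, 0.11 and -0.29 at 6 h. In each of these 3 genes 3 h library 1 was the highest of its group, with 9.997, 3.18 and 6.18 CPM of Mcm3 over the 3 h libraries as an example. Cdt1, the partner of Cdc6 in loading, had 16 to 68 reads in a library and a log2 fold change of 0.56 at 6 h. Exons of other genes, among them the opposite-strand Cops6 and Ap4m1, cover 12.6% of those of Mcm7. Differences between the subunits were not tested.

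Of the replication clamp and the nucleotide enzymes, Pcna and Rrm1 were called. Rrm1, the large subunit of ribonucleotide reductase (chr7:102441695-102469771, plus strand), had 12.4, 11.9 and 10.4 CPM at 6 h and 13.4, 14.2 and 14.3 CPM at 12 h, against 18.2, 18.01 and 19.8 CPM in sham hearts. Both late groups lay wholly below sham. The log2 fold changes were -0.69 ± 0.13 (SE; edgeR adjusted p = 0.000109) at 6 h and -0.42 ± 0.13 (SE; edgeR adjusted p = 0.0130) at 12 h. The 12 h call was lost without sham library 3 (-0.38, adjusted p = 0.0564) or 12 h library 1 (-0.38, adjusted p = 0.0545), with library totals in place of TMM scaling (-0.20, adjusted p = 0.274), and with no filter on low counts (-0.38, adjusted p = 0.115).

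Pcna, the sliding clamp of DNA polymerase (chr2:132249162-132253314, minus strand), had 53.1, 34.6 and 35.3 CPM at 1 h, against 29.6, 28.97 and 29.02 CPM in sham hearts. The groups did not overlap, and 1 h library 1 was far above the other two. The log2 fold change was 0.49 ± 0.16 (SE; edgeR adjusted p = 0.0499), just under the threshold. Without 1 h library 1 it was 0.27 with adjusted p = 0.325, and the call was also lost without any 1 of the sham libraries, at adjusted p of 0.115 to 0.124. It was lost as well with duplicate reads removed (adjusted p = 0.0808) and in a fit of the 1 h and sham libraries alone (adjusted p = 0.0911). Tyms, which makes thymidylate, had 38, 61 and 55 reads at 6 h, 45, 17 and 16 at 3 h and 33, 29 and 19 in sham hearts. It was higher at 6 h than at 3 h, by 0.89 ± 0.31 (SE; edgeR adjusted p = 0.0362), and was not called against sham. Rrm2, the small subunit of the reductase, had 15 to 101 reads in a library and was not called.

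Of the 15 mitotic and spindle genes, 1 was called against sham, higher at 3 and 6 h. Of all tested genes, 18.4% and 24.6% were called higher at those times. The called gene was Cenpa, the histone H3 variant that marks centromeres (chr5:30666777-30674830, plus strand). It had 75.3, 45.9 and 54.8 CPM at 3 h and 50.3, 48.4 and 61.8 CPM at 6 h, against 28.4, 36.5 and 29.7 CPM in sham hearts. Both groups lay wholly above sham. The log2 fold changes were 0.90 ± 0.16 (SE; edgeR adjusted p = 0.000123) at 3 h and 0.76 ± 0.16 (SE; edgeR adjusted p = 0.000326) at 6 h. At 12 h it had 28.01, 28.9 and 24.5 CPM and was lower than at 6 h, with a log2 fold change of -0.98 ± 0.16 (SE; edgeR adjusted p = 0.000234). The gene upstream on the same strand, Slc35f6, chosen after its values were seen, was also called higher, with log2 fold changes of 0.65 at 3 h, 1.16 at 6 h and 0.52 at 12 h; at 12 h Cenpa was not called.

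The remaining 14 mitotic genes had positive fold changes after ischemia in all but Cdc25b, and none was called. Mki67, a marker of cycling cells, had 21.3, 21.97 and 16.9 CPM after ischemia (317, 311 and 309 reads), against 8.09, 11.8 and 14.9 CPM in sham hearts (126, 172 and 186 reads). Every ischemia library lay above every sham library, and the log2 fold change was 0.80 ± 0.41 (SE; edgeR adjusted p = 0.615). Top2a, the topoisomerase that untangles chromosomes, had 18.6, 17.4 and 15.6 CPM after ischemia, against 7.38, 11.2 and 11.9 CPM in sham hearts, also without overlap, at 0.76 ± 0.40 (SE; edgeR adjusted p = 0.630). The median log2 fold change after ischemia was 0.67 over the 8 mitotic cyclins, kinases and the phosphatase Cdc25b and 0.79 over the 7 spindle, centromere and chromosome genes, against 0.00 over all tested genes.

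Libraries of the same group differed widely in the sum of 8 mitotic genes from 1.5 h on, and less so in sham hearts. The 8 mitotic cyclins, kinases and phosphatase summed to 14.1, 18.9 and 23.3 CPM in the sham libraries, to 27.0, 27.1 and 29.9 CPM after ischemia, and to 25.4, 28.8 and 26.0 CPM at 1 h. At 1.5 h they summed to 23.5, 8.49 and 13.7 CPM, and at 3 h to 21.7, 6.29 and 14.4 CPM. At 6 h the sums were 18.3, 16.6 and 9.65 CPM, and at 12 h 19.0, 18.8 and 9.16 CPM. The highest library held 2.77 times the sum of the lowest at 1.5 h, 3.45 times at 3 h, 1.90 at 6 h and 2.07 at 12 h. It held 1.65 times the lowest in sham hearts and 1.11 times after ischemia. The 3 h libraries also differed in cardiomyocyte markers, which summed to 76803, 105654 and 88025 CPM; the part of this in the mitotic values was not tested.

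**Figure D4:**
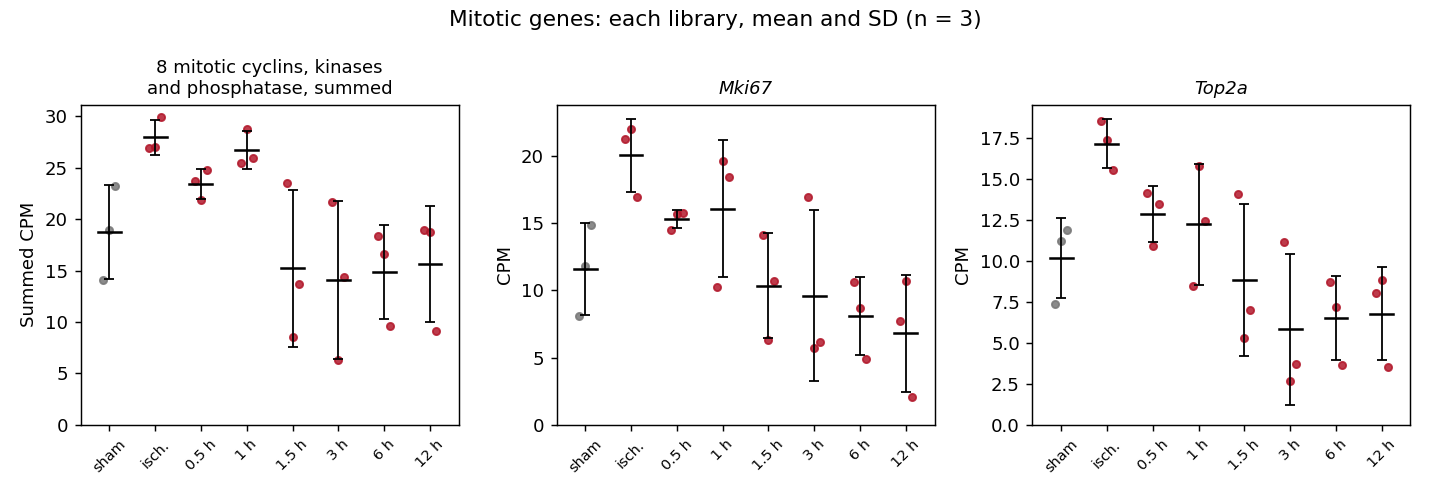
Summed CPM of the 8 mitotic cyclins, kinases and phosphatase (left), and CPM of Mki67 (middle) and Top2a (right), in each library by group from sham to 12 h of reperfusion; points are libraries (grey sham, red all others), bars the mean and whiskers the SD (n = 3). The ischemia libraries lie above all sham libraries in each panel, and the spread of the sum is wide from 1.5 h on. At 1 h the SD was already 5.11 CPM for Mki67 and 3.70 CPM for Top2a, against 3.39 and 2.44 CPM in sham hearts.

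The test for any change across the 8 groups called 6 genes that no comparison with sham called: Ccna2, Cdk1, Aurkb, Bub1, Mki67 and Top2a, all of them mitotic. Conversely, Ccne2 (adjusted p = 0.104), Mcm4 (0.136) and Pcna (0.0530) were called against sham but not by this edgeR test. By role, the test called 37.5% of the 8 mitotic cyclins, kinases and phosphatase and 57.1% of the 7 spindle genes. It called 100% of the 4 G1 genes and 0% of the 4 G1/S genes. The shares were 37.5% of the 8 licensing genes and 25% of the 4 clamp and nucleotide genes. Only the G1 share was above the 64.3% of all tested genes. Ccna2, cyclin A2, reached an edgeR adjusted p of 0.0356, Cdk1, the mitotic kinase, 0.0386 and Aurkb, Aurora kinase B, 0.0433. Bub1, a spindle checkpoint kinase, reached 0.0238. It was the 1 gene of the 35 with libraries at or under the floor of 3 reads: it had 19, 3 and 10 reads at 1.5 h, 29, 2 and 16 at 3 h and 20, 9 and 3 at 6 h, where sham hearts had 14, 11 and 12. Ccnb1, Ccnb2, Cdc25b, Aurka, Plk1, Bub1b, Cdc20 and Birc5, which are cyclins, kinases, a phosphatase and checkpoint or passenger proteins of mitosis, were called by neither test. Exons of the opposite-strand gene Exosc9 cover 12.5% of those of Ccna2.

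Without 3 h library 1, the highest of its group for the mitotic sum, 11 of the 35 genes were called at 3 h in place of 5. The added ones were Mcm3, Mcm6, Mcm7, Ccna2, Ccnb1 and Top2a, all lower than in sham hearts. This library was singled out by values of these same genes, and leaving out the highest library lowers the group mean. The added calls are therefore not separate evidence of lower levels. With all libraries kept, 18.4% of all tested genes were called higher at 3 h and 16.9% lower. The share of all tested genes called under this omission is not reported here. The same omission gave 5 calls between 3 h and 1.5 h in place of 3. Without 3 h library 2, the lowest of its group for the mitotic sum, the 3 h calls of Ccne2 and Mcm5 were lost.

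Between neighbouring times, 1 gene was called higher and 2 lower at 3 h than at 1.5 h, against backgrounds of 5.36% and 3.17%: Cenpa was higher, and Mcm2 and Mcm5 lower. Without 1.5 h library 1, 1.5 h library 3 or 3 h library 3, 1 was called. At 6 h against 3 h, 3 were called higher and 3 lower, against 14.7% and 13.2%: Ccnd1, Cdk4 and Tyms were higher, and Ccnd3, Cdc6 and Rrm1 lower. Without 6 h library 2 the total was 3, and without 6 h library 3 it was 2. At 12 h against 6 h, 0 were called higher and 2 lower, Ccnd1 and Cenpa, against 6.49% and 6.68%.

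Compared per length of gene, as CPM per kilobase, the highest levels in sham hearts were 14.4 for Ccnd1, 12.7 for Ccnd2, 12.2 for Pcna and 9.71 for Cdk4. Cyclin D3 (Ccnd3) stood at 4.86, below Cdk2 at 5.60 and Cenpa at 5.38. These values use the deposited gene lengths, 2432 bases for Cdk2 and 3835 for Ccnd1. The GENCODE exons cover 6219 bases of Cdk2 and 4709 of Ccnd1. The places of Cdk2 below Ccnd3 or above it, and of Ccnd1 among the highest, therefore depend on the length used. Bub1, at 0.200 CPM per kilobase, Cdc6, at 0.296, and Tyms, at 0.308, were the lowest.

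Other genes of these pathways were followed as 3 lists. Of 44 other replication genes, 2 were called higher and 10 lower at 3 h, 1 higher and 14 lower at 6 h, and 0 higher and 9 lower at 12 h, against the backgrounds given above. Their lower share, 31.8% at 6 h, was above the background of 22.9%, and their higher share, 2.27%, was below that of 24.6%; the median log2 fold change was -0.35, against -0.01 over all tested genes. Pola1, the catalytic subunit of DNA polymerase alpha, was at 3.05 ± 0.290 CPM at 6 h and 9.36 ± 0.623 CPM in sham hearts (SD, n = 3 each). Of 41 other mitosis genes, 1 was called higher and 6 lower at 3 h, 0 and 4 at 6 h, and 0 and 1 at 12 h. The lower shares, 14.6%, 9.76% and 2.44%, were each below the background of that time. The kinesin gene Kif4 was at 0.777 ± 0.556 CPM at 3 h and 1.98 ± 0.544 CPM in sham hearts. Of 25 tested inhibitors, pocket proteins and other regulators, 6 were called higher and 9 lower at 6 h, or 24% and 36%, against backgrounds of 24.6% and 22.9%; the higher share was no greater than that of all tested genes. Myc, a transcription factor that promotes entry into the cycle, was at 67.9 ± 23.3 CPM at 6 h and 7.19 ± 1.89 CPM in sham hearts, and Cdkn1a, the p21 inhibitor of cyclin-dependent kinases, at 223 ± 26.2 CPM at 6 h and 72.9 ± 39.6 CPM in sham hearts. Rbl1, a pocket protein that binds E2F factors, was lower, at 2.35 ± 1.07 CPM at 6 h and 6.07 ± 0.336 CPM in sham hearts.

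Markers of other cells moved over the same times. The 10 neutrophil markers summed to 75.1 to 177 CPM at 6 h and 67.0 to 74.6 CPM at 12 h, against 3.63 to 6.64 CPM in sham hearts, and 9 of 9 tested were called higher at both times; Ly6g was not tested, with 33 reads in all libraries. They already summed to 10.7 to 16.4 CPM after ischemia, with 0 of 9 called, and 5 of 9 were called higher at 0.5 h and at 1 h, 7 at 1.5 h and 8 at 3 h. The 12 monocyte and macrophage markers summed to 330 to 377 CPM at 6 h, against 287 to 304 CPM in sham hearts, with 8 called higher and 3 lower. The 10 endothelial markers summed to 1912 to 2261 CPM at 3 h, against 1514 to 1790 CPM in sham hearts, with 5 called higher and 2 lower. The 10 fibroblast markers summed to 1310 to 1884 CPM at 6 h, against 2330 to 2407 CPM in sham hearts, with 3 called higher and 6 lower. The 10 lymphocyte markers summed to 2.43 to 2.74 CPM at 6 h, against 4.32 to 6.29 CPM in sham hearts. Of the 7 tested, 0 were called higher and 1 lower, and Cd3e, Cd3d and Ms4a1 were not tested. After ischemia the 9 erythroid markers summed to 244 to 297 CPM, against 79.3 to 186 CPM in sham hearts, with 0 of 5 tested called, although 3 were called higher at 0.5 h and 2 at 1 h, and the erythroid genes Epb42, Klf1 and Slc4a1 at 6 to 22 reads over all libraries. The 10 cardiomyocyte markers summed to 56894 to 65759 CPM at 12 h, against 79536 to 83961 CPM in sham hearts, with 0 called higher and 4 lower. The backgrounds for all these marker counts are those given above for each time. The part of these cells in the values of the cell cycle genes was not tested.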

How the data were processed

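RNA-seq of mouse heart total RNA, 24 libraries in 8 groups, was deposited as 1 table per library. Per the file headers the tables hold, for each gene, read counts with all reads and with duplicates removed, uniquely or multiply mapped, with RPKM values and gene length. The counts are raw: the authors deposited them as whole numbers, and the deposited RPKM values were not used. The submitters' processing notes name build mm10; sources used here do not give the aligner, counter or strand setting. Uniquely mapped counts with duplicates kept were tested, since duplicates made up 39.2 to 54.5% of unique reads, against 19.1 to 31.0% of the reads of the 35 genes.

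IDs were matched to symbols (45143 of 46078) and positions taken from GENCODE. Genes passing edgeR's filterByExpr (minimum count 10, minimum total 15) were scaled by TMM and fitted with edgeR 4.0.16 in R 4.3.3, quasi-likelihood, 1 fit of all 8 groups. Genes were called at a Benjamini-Hochberg adjusted p under 0.05. Each SE was derived as the absolute log2 fold change divided by the square root of the F statistic of the quasi-likelihood test. It was not an SE given by the fit itself. The fit was also run on simulated counts drawn with its own dispersion estimates. Those counts held no outlying libraries, so the run cannot check calls that depend on single libraries. Genes were named where called against sham, and at most 3 of the largest changes of each pathway list; some genes of the lists are not reported here. Alternatives used other scaling, DESeq2 1.42.0, no filter, other count columns, 2 groups alone, a replicate block and each library left out. The genes and lists were chosen with earlier results of these data known.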

Additional observations from a re-analysis of the deposited data

How the results depend on the processing

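No call against sham reversed its direction under any of the 14 alternatives run for it. Ccnd1 at 6 h, Mcm2 at 3, 6 and 12 h, Cdc6 and Cenpa at each time they were called, Ccnd2 and Rrm1 at 6 h kept their calls under all 14. Without the filter on low counts, 2 of the 35 genes were called after ischemia, 1 at 0.5 h, 3 at 1 h and 26 for any change, in place of 0, 0, 1 and 15. The share of all genes called without the filter is not reported here. Fits of the 2 groups compared alone called 4 at 0.5 h, 3 at 1 h, 1 at 1.5 h, 1 between 3 and 1.5 h and 2 between 6 and 3 h. At 1 h, removing duplicate reads gave 2 calls, DESeq2 gave 3 and the replicate block gave 0; Pcna was not among those called with duplicates removed or in the fit of 2 groups. Library totals in place of TMM gave 3 calls at 12 h and 4 between 12 and 6 h, and moved the share of higher calls among all called genes to 76.8% at 12 h in place of 53.1%. The cause of these changes was not tested. Leaving out each library in turn gave 0 to 0 calls after ischemia, at 0.5 h and at 1.5 h, 0 to 1 at 1 h, 4 to 11 at 3 h, 6 to 9 at 6 h, 4 to 5 at 12 h, 1 to 5 between 3 and 1.5 h, 2 to 8 between 6 and 3 h, 2 to 2 between 12 and 6 h, and 10 to 22 for any change. Same-numbered libraries of different groups had deviations correlated at -0.279 to 0.301, and 9 of 24 libraries correlated best with their own number, so the numbers were not taken to pair samples; the replicate block ended the calls of Pcna at 1 h (adjusted p = 0.0591) and Cdk4 at 12 h (adjusted p = 0.0523) and moved no other count by more than 1.5 times. Depth limits the genes with few reads, of which Bub1 and Cdc6 had the lowest levels per length.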
